A study of Mus musculus with 20 samples.

Results

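Casp8, the initiator protease of death-receptor apoptosis, and 7 genes that act with it were followed through the first cleavage of the mouse embryo. The 8 genes are Casp8, Cflar, Fadd, Casp2, Casp9, Casp6, Xiap and Birc2, taken by symbol from the 24411 gene symbols of each of the authors' tables, and all 8 were found. They were chosen by measured values of these data: Casp8 was picked because it was far lower in 2-cell embryos than in G2 zygotes of both strains. The 2-cell values of all 8 are therefore given as a description with no test, and the earlier steps are tested. Their RNA levels moved in different directions, and they are described by role: protease, partner and adaptor of the receptor complex, further caspases, and inhibitors.

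In the extrinsic pathway, ligands of the TNF family cluster death receptors on the cell surface, the adaptor Fadd is recruited, and Fadd brings caspase-8 molecules together so that they cleave and activate each other. Cflar encodes c-FLIP, a relative of caspase-8 without protease activity that pairs with it and sets whether the complex kills, and the same complex holds back necroptosis, a form of cell death that needs Ripk1, Ripk3 and Mlkl. Mitochondrial death runs through caspase-9, stress in the nucleus can act through caspase-2, both routes end in executioner caspases, and the IAP proteins encoded by Xiap and Birc2 restrain caspases or tag receptor-complex proteins with ubiquitin. Mouse embryos that lack Casp8 die in mid-gestation, and loss of Ripk3 lets them live on. In eggs and zygotes nearly all mRNA was made earlier in the growing oocyte, and much of it is cleared by the 2-cell stage, when the embryo's own genome becomes active.

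The samples were untreated, and the labels name no mutant allele or transgene in any group. They were B6CASTF1 hybrids in 3 groups (G1 zygotes, 3 samples; G2 zygotes, 3 samples; 2-cell embryos in G2, 2 samples used here) and C57BL/6J in 4 groups of 3 samples (MII eggs, G1 zygotes, G2 zygotes and 2-cell embryos in G2). Each sample was a batch of 10 to 15 eggs or embryos, with oocytes released from dbcAMP to mature in M16 medium, in vitro fertilization, and embryo culture in KSOM under 5% oxygen; neither the age of the females nor the direction of the hybrid cross is stated in the labels. Reverse transcription was primed with oligo-dT (Smart-seq2), so a longer poly(A) tail and more mRNA cannot be told apart, and in such batches fewer cells with the RNA and less RNA per cell cannot be told apart either.

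The files hold comparisons of consecutive stages, not values per sample. From each strain's mean normalized count (counts scaled for depth by the authors, averaged over its samples) and the fold changes, a mean level was computed for every stage, called the implied level here; it carries no SD. The 2 strains were fitted separately, so a level of B6CASTF1 set beside a level of C57BL/6J is not on a common scale. Depth per sample is unknown, and the authors' SE of the log2 fold change gives the precision: at a mean count of 100 or more its median was 0.35 and 0.40 for the B6CASTF1 steps and 0.80 to 0.87 for the C57BL/6J steps. All 8 oocyte markers, such as Zp3 and Gdf9, had an implied level of at least 10 in every group. Their summed level was 218887, 101164 and 13242 in B6CASTF1 G1, G2 and 2-cell samples. In C57BL/6J MII eggs, G1, G2 and 2-cell samples it was 151903, 65554, 67857 and 7669. Zp3 was higher in 2-cell embryos than in G2 zygotes of both strains, and the other oocyte markers were lower. Of 8 leukocyte markers, 3 to 5 reached a level of 10 in each group, and their summed level was 286, 278 and 938 in B6CASTF1 G1, G2 and 2-cell samples and 272, 191, 143 and 563 in C57BL/6J MII eggs, G1, G2 and 2-cell samples. Ptprc, the common leukocyte antigen, stayed between 0.104 and 1.44, while Coro1a stood at 253 in 2-cell embryos against 0.165 in G2 zygotes of B6CASTF1 and at 256 against 0.193 in C57BL/6J, and Cd52 and Cd68 were also higher in 2-cell embryos. Laptm5 was lower there, at 5.31 against 175 in B6CASTF1 and 8.07 against 43.8 in C57BL/6J, and so was Csf1r in both strains. Itgam was lower in B6CASTF1 and higher in C57BL/6J, and Lyz2, with a level in B6CASTF1 only, was higher. Of 12 cumulus and granulosa markers, 1 or 2 reached a level of 10 in the C57BL/6J stages and 3 to 8 in the B6CASTF1 stages, and their summed level was 2608, 1430.1 and 1475 in B6CASTF1 G1, G2 and 2-cell samples and 1609, 1064, 845 and 302 in C57BL/6J MII eggs, G1, G2 and 2-cell samples. Most of the C57BL/6J sum up to G2 zygotes was Cyp19a1, at 1597, 1050 and 810 in MII eggs, G1 and G2 zygotes. In B6CASTF1 Cyp19a1 stood at 2122, 1338 and 24.5 in G1, G2 and 2-cell samples. Amhr2 reached 891 in B6CASTF1 and 286 in C57BL/6J 2-cell embryos, while the granulosa marker Amh is listed at 0 in both strains. Other granulosa markers were present in B6CASTF1. In its G1, G2 and 2-cell samples Inha stood at 284, 1.53 and 0.969, Tnfaip6 at 65.3, 7.50 and 299, and Ptgs2 at 43.5, 0.895 and 203. Inhba and Hsd17b1 were highest in B6CASTF1 G1 zygotes, at 31.3 and 26.2. In C57BL/6J Inha, Inhba and Hsd17b1 have no level, Tnfaip6 reached at most 8.09 and Ptgs2 at most 1.62. The part of these cells in the results was not tested. Whether replicate batches came from separate females or days is not labelled, so p-values cover the spread among these batches, which may be technical.

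Casp8 and Cflar lie side by side on the plus strand of chromosome 1, with 36489 bases between the end of Cflar (GRCm38 chr1:58711508-58758884) and the start of Casp8 (chr1:58795374-58847503). Their promoter windows are shown because both neighbours rose from the G1 to the G2 zygote and stood far apart at the 2-cell stage. Each window runs from 250 bases before to 50 bases after a RefSeq start site (GRCm38.p6), 5′ to 3′ on the plus strand. Capitals mark CCAAT in the Casp8 window and TATAAA overlapped by its reverse complement TTTATA in the Cflar window.
Casp8 promoter window, chr1:58802252-58802551: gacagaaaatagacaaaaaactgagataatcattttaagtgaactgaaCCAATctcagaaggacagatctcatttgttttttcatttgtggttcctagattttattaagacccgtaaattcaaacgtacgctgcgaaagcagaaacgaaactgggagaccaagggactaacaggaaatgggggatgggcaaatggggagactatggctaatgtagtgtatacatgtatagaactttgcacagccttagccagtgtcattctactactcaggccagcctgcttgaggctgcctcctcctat
Cflar promoter window, chr1:58711241-58711540: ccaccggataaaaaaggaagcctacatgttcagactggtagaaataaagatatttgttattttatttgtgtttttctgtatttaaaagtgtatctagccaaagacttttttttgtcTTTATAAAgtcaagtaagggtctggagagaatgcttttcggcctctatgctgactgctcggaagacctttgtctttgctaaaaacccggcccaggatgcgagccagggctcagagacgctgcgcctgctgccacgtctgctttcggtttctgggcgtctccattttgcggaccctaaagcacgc
The Casp8 window lies inside the annotated gene, downstream of its outermost start. It holds 5 CG dinucleotides and 42% G+C, the Cflar window 12 and 45%, and the median of all 32851 promoter windows of that length is 7 and 52.7%. CCAAT or ATTGG occurs in 37.4% of all windows, and TATAAA or TTTATA in 13.6%. The series title names the nuclear receptor Nr5a2; its extended half-site AAGGTCA, on either strand (TGACCTT), is in none of the windows of the 8 genes and in 4.72% of all windows. These are matches of letters, and no binding was measured.

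**Figure D1:**
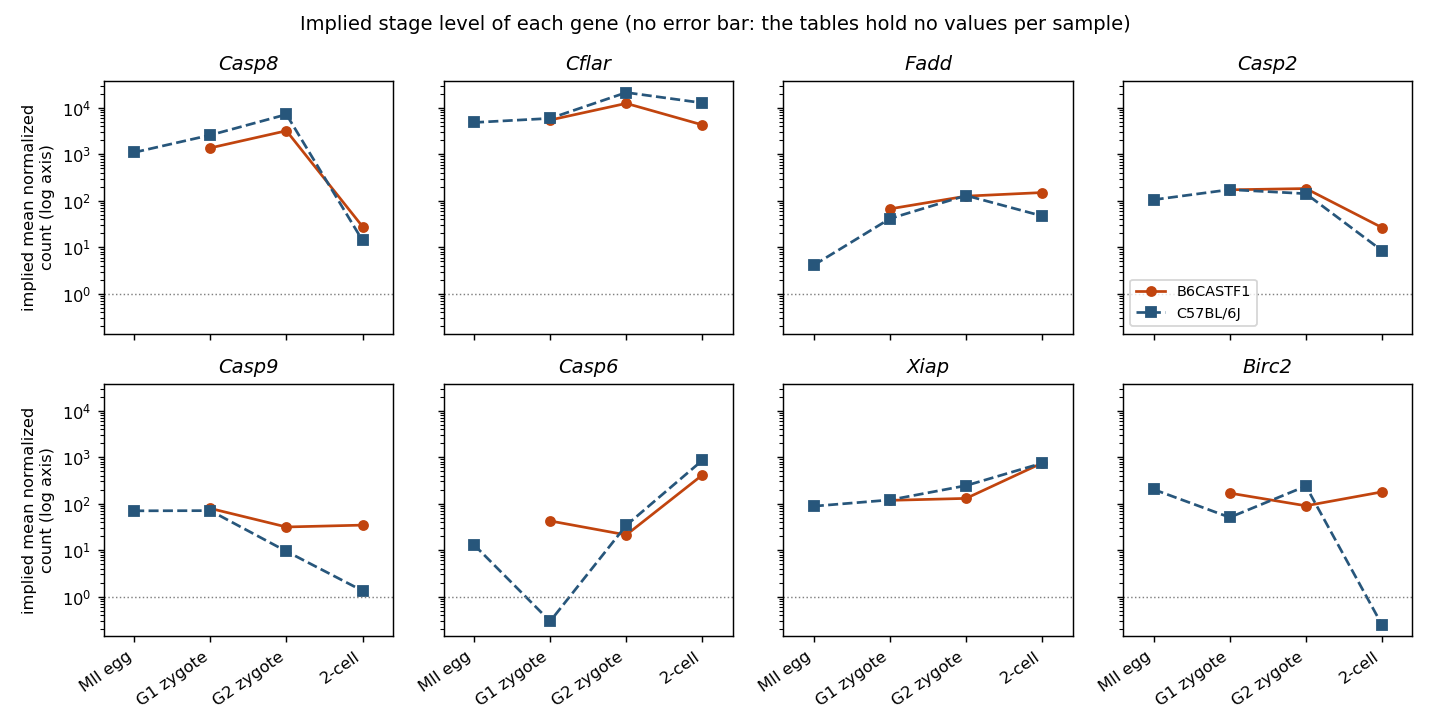
Implied stage level of each of the 8 genes (mean normalized count, log axis) in MII eggs, G1 zygotes, G2 zygotes and 2-cell embryos, with B6CASTF1 as circles on solid lines and C57BL/6J as squares on dashed lines. The dotted line is a level of 1; Casp8 drops to 27.9 and 14.0 at the 2-cell stage while Cflar stays at 4308 and 12795.

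Casp8 RNA was present in the egg, had its highest level in G2 zygotes and was nearly gone in 2-cell embryos. Its implied level was 1376, 3216 and 27.9 in B6CASTF1 G1 zygotes, G2 zygotes and 2-cell embryos, and 1102, 2597, 7224 and 14.0 in C57BL/6J MII eggs, G1 zygotes, G2 zygotes and 2-cell embryos. The 2-cell value was the lowest of each strain, and the order of the other stages was the same in both.

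Casp8 rose between G1 and G2 zygotes in both strains. In B6CASTF1 the authors' deposited table gives a log2 fold change of 1.23 (SE 0.27, DESeq2 adjusted p = 1.1e-04), a 2.34-fold higher level in G2 zygotes. In C57BL/6J the authors' deposited table gives 1.48 (SE 0.39, DESeq2 adjusted p = 0.0037), or 2.78-fold. The strains differed by -0.25 (SE 0.47, B6CASTF1 minus C57BL/6J, log2 scale), which did not pass the test (adjusted p = 0.998 over 12517 genes tested in both strains). Between MII eggs and G1 zygotes of C57BL/6J the authors' deposited table gives a log2 fold change of 1.24 (SE 0.39) for Casp8, with a DESeq2 adjusted p of 0.0504, just outside the threshold of 0.05. That call turned with the set of genes adjusted over: it passed at 0.047 when genes with a mean count under 10 were left out.

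At the 2-cell step, the contrast that chose the gene, the authors' deposited table gives a log2 fold change over G2 zygotes of -6.85 (SE 0.36) in B6CASTF1 and -9.01 (SE 0.46) in C57BL/6J. At a mean count of 100 or more this was the 67th lowest of 9480 fold changes in B6CASTF1 and the 283rd lowest of 8300 in C57BL/6J. Summed over the steps, the Casp8 level in 2-cell embryos stood -5.62 from G1 zygotes in B6CASTF1 and -7.53 from G1 zygotes in C57BL/6J on the log2 scale. The G2 zygote samples enter both the G2 over G1 and the 2-cell over G2 comparison, so these steps are not independent of each other.

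**Figure D2:**
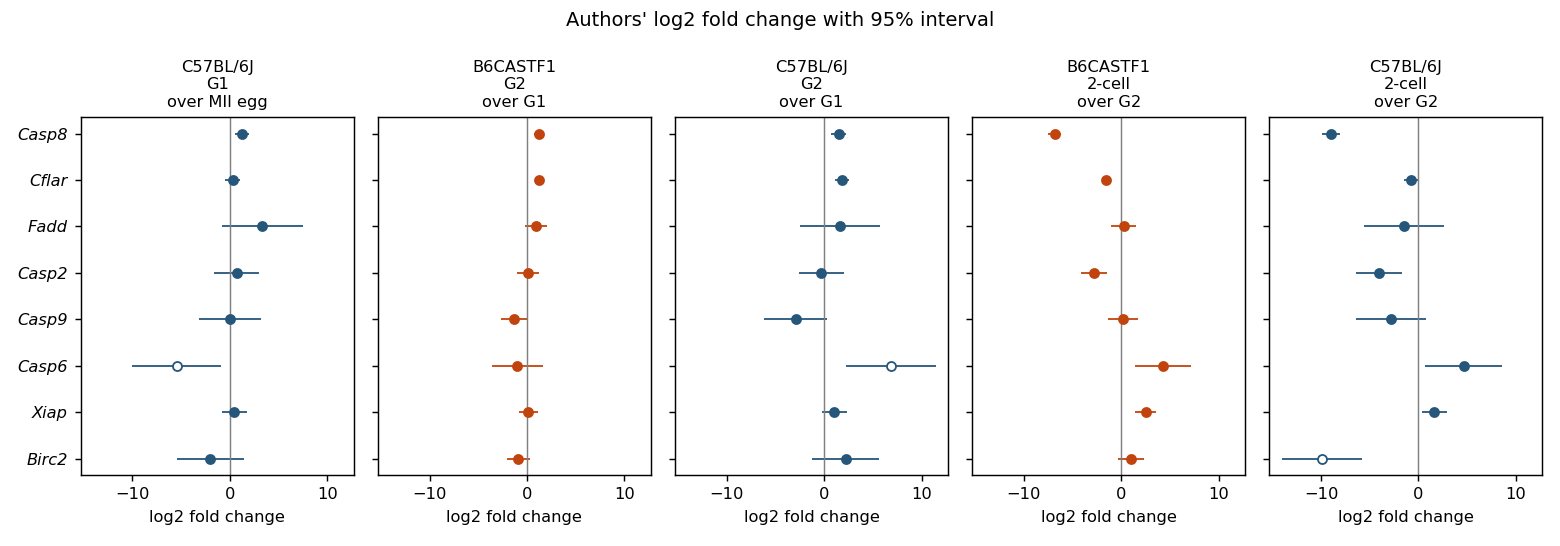
The authors' log2 fold change (later over earlier stage) of each gene in 5 comparisons, with bars of 1.96 SE; B6CASTF1 panels are orange-red and stand left of the C57BL/6J panel of the same step, and open circles have an implied level under 1 in either stage. Casp8 is at -6.85 and -9.01 in the 2-cell panels and above 0 in the other 3. The authors' test of the 2-cell step is set aside as support, because that step chose the gene.

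Cflar, the partner and brake of caspase-8, was the most abundant of the 8 per length of transcript in every group except C57BL/6J G1 zygotes, where Casp8 was higher. Its implied level was 5479, 12495 and 4308 in B6CASTF1 G1 zygotes, G2 zygotes and 2-cell embryos, and 4852, 5950.1, 21414 and 12795 in C57BL/6J MII eggs, G1 zygotes, G2 zygotes and 2-cell embryos. It peaked in G2 zygotes of both strains, as Casp8 did.

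Cflar rose between G1 and G2 zygotes in both strains. The authors' deposited table gives a log2 fold change of 1.19 (SE 0.13, DESeq2 adjusted p = 8.1e-17) in B6CASTF1, where the level in G2 zygotes was 2.28-fold higher. In C57BL/6J the authors' deposited table gives 1.85 (SE 0.38, DESeq2 adjusted p = 9.3e-05), or 3.60-fold. The strain difference of -0.66 (SE 0.41) did not pass the test (adjusted p = 0.70). From egg to G1 zygote the authors' deposited table gives Cflar a log2 fold change of 0.29 (SE 0.38, DESeq2 adjusted p = 0.9995), which did not pass. At the 2-cell step the authors' deposited table gives -1.54 (SE 0.15) in B6CASTF1 and -0.74 (SE 0.38) in C57BL/6J, with 2-cell levels of 4308 and 12795 for Cflar beside 27.9 and 14.0 for Casp8.

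Per kb of transcript, Cflar exceeded Casp8 by a ratio of 1.57, 1.53 and 60.7 in B6CASTF1 G1 zygotes, G2 zygotes and 2-cell embryos. In C57BL/6J the ratio was 1.73, 0.901, 1.17 and 359 in MII eggs, G1 zygotes, G2 zygotes and 2-cell embryos. Lengths are those of the longest coding transcript in GENCODE M21, 2585 bases for Casp8 and 6572 for Cflar, and the isoforms the embryos use were not measured. The ratios up to the G2 zygote all lay within 0.901 to 1.73, and both 2-cell ratios were above 60.

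**Figure D3:**
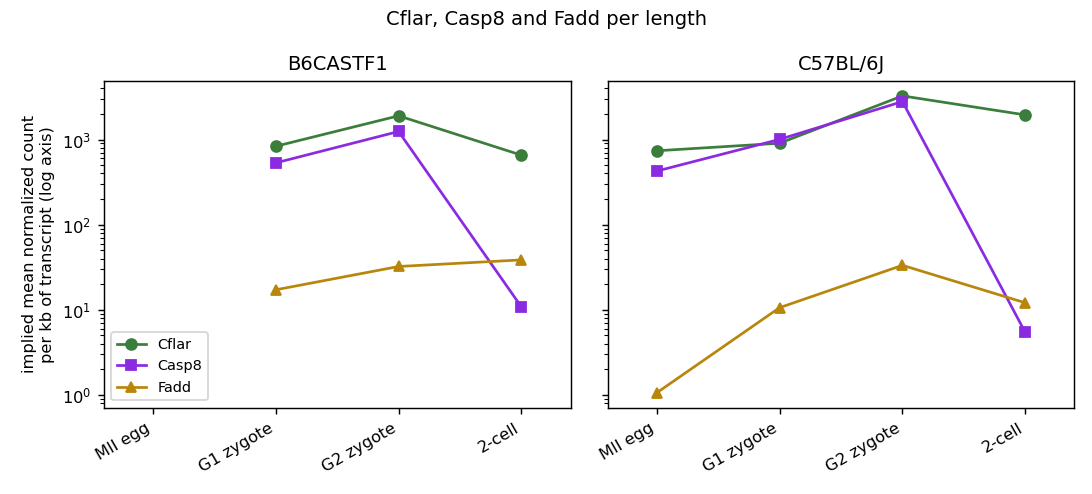
Implied level per kb of transcript (mean normalized count per kb, log axis) of Cflar, Casp8 and Fadd at each stage in B6CASTF1 (left) and C57BL/6J (right). Cflar and Casp8 run close together until the G2 zygote, and at the 2-cell stage Casp8 is at 10.8 and 5.42 per kb, below Fadd at 38.6 and 12.1.

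Fadd, the adaptor that joins receptor and caspase-8, had far less RNA per kb than its partners in zygotes of both strains. Its implied level was 67.1, 126 and 151 in B6CASTF1 G1 zygotes, G2 zygotes and 2-cell embryos, and 4.14, 41.4, 130.2 and 47.2 in C57BL/6J MII eggs, G1 zygotes, G2 zygotes and 2-cell embryos. Per kb, Casp8 exceeded it by a ratio of 38.5 in B6CASTF1 and 83.8 in C57BL/6J G2 zygotes; at the 2-cell stage the ratio of Casp8 over Fadd was 0.28 and 0.448. No tested step of Fadd passed. For G2 over G1 the authors' deposited table gives 0.91 (SE 0.59, DESeq2 adjusted p = 0.32) in B6CASTF1 and 1.65 (SE 2.08, DESeq2 adjusted p = 0.79) in C57BL/6J. The C57BL/6J interval runs from -2.43 to 5.74 and cannot tell a fall from a rise. The 2-cell value of Fadd in the authors' deposited table is 0.26 (SE 0.65) in B6CASTF1 and -1.46 (SE 2.09) in C57BL/6J.

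Casp2, the caspase activated in the PIDDosome complex after DNA damage or failed division, passed the test at no step before the 2-cell stage. The implied level of Casp2 was 173, 184 and 26.6 in B6CASTF1 G1 zygotes, G2 zygotes and 2-cell embryos, and 106, 174, 143 and 8.49 in C57BL/6J MII eggs, G1 zygotes, G2 zygotes and 2-cell embryos. The G2 over G1 step did not pass the test in either strain: the authors' deposited table gives 0.09 (SE 0.58, DESeq2 adjusted p = 0.97) in B6CASTF1 and -0.29 (SE 1.17, DESeq2 adjusted p = 0.97) in C57BL/6J. It was the other gene of the 8 with a large drop at the 2-cell step in both strains, with -2.79 (SE 0.67) in B6CASTF1 and -4.07 (SE 1.22) in C57BL/6J in the authors' deposited table.

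Casp9, the apoptosome caspase, was low throughout and lower in G2 than in G1 zygotes in both strains, without passing the test. Its implied level was 78.8, 31.4 and 34.5 in B6CASTF1 G1 zygotes, G2 zygotes and 2-cell embryos, and 70.0, 70.7, 9.40 and 1.33 in C57BL/6J MII eggs, G1 zygotes, G2 zygotes and 2-cell embryos. For G2 over G1 the authors' deposited table gives -1.33 (SE 0.70, DESeq2 adjusted p = 0.19) in B6CASTF1 and -2.91 (SE 1.64, DESeq2 adjusted p = 0.34) in C57BL/6J. For 2-cell embryos over G2 zygotes the authors' deposited table gives 0.13 (SE 0.79) in B6CASTF1 and -2.82 (SE 1.84) in C57BL/6J.

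Casp6, an executioner caspase that cleaves nuclear lamins, was higher in 2-cell embryos than in G2 zygotes of both strains, where Casp8 was lower. The implied level of Casp6 was 42.4, 21.2 and 413 in B6CASTF1 G1 zygotes, G2 zygotes and 2-cell embryos, and 13.0, 0.294, 34.1 and 855 in C57BL/6J MII eggs, G1 zygotes, G2 zygotes and 2-cell embryos. Per kb it was second only to Cflar in 2-cell embryos of both strains. In C57BL/6J the G2 zygote rose over the G1 zygote (the authors' deposited table has a DESeq2 adjusted p of 0.045), but the G1 level was under 1 and no fold is given, and the call was lost with no filter on low counts (adjusted again: 0.054). In B6CASTF1 the authors' deposited table gives -0.998 (SE 1.34, DESeq2 adjusted p = 0.71) for that step. The strain difference did not pass the test (adjusted p = 0.12). The 2-cell value of Casp6 in the authors' deposited table is 4.28 (SE 1.48) in B6CASTF1 and 4.65 (SE 2.03) in C57BL/6J.

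Xiap, the X-linked inhibitor that binds caspase-9 and the executioners, was highest in 2-cell embryos of both strains. The implied level of Xiap was 118, 129.6 and 748 in B6CASTF1 G1 zygotes, G2 zygotes and 2-cell embryos, and 88.1, 120.2, 245 and 743 in C57BL/6J MII eggs, G1 zygotes, G2 zygotes and 2-cell embryos. The zygotic step did not pass the test: for G2 over G1 the authors' deposited table gives 0.14 (SE 0.50, DESeq2 adjusted p = 0.93) in B6CASTF1 and 1.02 (SE 0.66, DESeq2 adjusted p = 0.42) in C57BL/6J. For 2-cell embryos over G2 zygotes of Xiap the authors' deposited table gives 2.53 (SE 0.55) in B6CASTF1 and 1.60 (SE 0.65) in C57BL/6J.

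Birc2, which encodes the ubiquitin ligase cIAP1 of the TNF receptor complex, had 2-cell values of opposite sign in the strains. The interval of its B6CASTF1 value runs from -0.32 to 2.30 and spans 0. Fadd and Casp9 also had opposite signs, but their intervals span 0 in both strains, so those signs are uncertain. The implied level of Birc2 was 168, 89.9 and 179 in B6CASTF1 G1 zygotes, G2 zygotes and 2-cell embryos, and 202, 50.5, 238 and 0.246 in C57BL/6J MII eggs, G1 zygotes, G2 zygotes and 2-cell embryos. No tested step passed: for G2 over G1 the authors' deposited table gives -0.91 (SE 0.60, DESeq2 adjusted p = 0.33) in B6CASTF1 and 2.24 (SE 1.75, DESeq2 adjusted p = 0.56) in C57BL/6J. The strain difference of that step, -3.14 (SE 1.85), did not pass either (adjusted p = 0.66). The 2-cell value in the authors' deposited table is 0.99 (SE 0.67) in B6CASTF1; in C57BL/6J the 2-cell level is under 1 and no fold is given. Birc2 and Birc3 are close relatives, and the labels do not say how reads shared by them were assigned.

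Counted together, 2 of the 8 genes rose and 0 fell from G1 to G2 zygotes of B6CASTF1, where 9.63% of 14668 tested genes rose and 9.63% fell; they were Casp8 and Cflar. In C57BL/6J 3 rose and 0 fell at that step, where 5.01% of 13264 tested genes rose and 2.87% fell; they were Casp8, Cflar and Casp6. Under Bonferroni 1 of the 8, Cflar, passed at that step in each strain. From MII egg to G1 zygote 0 of 8 passed the authors' DESeq2 threshold, 2 had an unadjusted p under 0.05 (Casp8 and Casp6), and 1.62% of 13551 tested genes rose and 1.12% fell. No other tool was run on these tables. The median log2 fold change of the 8 was 0.11 against 0.00 over all tested genes at the G2 over G1 step of B6CASTF1, and 1.56 against 0.12 in C57BL/6J. The C57BL/6J median is imprecise, since it lies between Casp8 at 1.48 (SE 0.39) and Fadd at 1.65 (SE 2.08). The median SE of the 8 there was 1.41, against 0.80 for genes with a mean count of 100 or more, and 5 of the 8 did not pass.

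The 2-cell step chose the genes, so its count is a description from which nothing is read. The authors' threshold marks 2 of the 8 as higher and 3 as lower in each strain, beside 33.1% higher and 26.8% lower of 16128 tested genes in B6CASTF1 and 25.0% higher and 25.3% lower of 12839 in C57BL/6J. Casp6 and Xiap are the higher genes in both. The lower ones are Casp8, Cflar and Casp2 in B6CASTF1 and Casp8, Casp2 and Birc2 in C57BL/6J. The strain difference of the G2 over G1 step passed for 0 of the 8, with 1 unadjusted p under 0.05, and for 1.92% of the 12517 genes tested in both strains. The SE of these differences ran from 0.41 for Cflar to 2.70 for Casp6, and a p that misses the threshold does not show that the strains acted alike.

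The 3′ ends are shown because oligo-dT priming starts at the poly(A) tail and the tails of stored egg mRNAs can be lengthened. The last 30 bases of the annotated transcript (GENCODE M21, GRCm38, 5′ to 3′ on the gene's strand) carry the poly(A) signal in capitals.
Casp8 3′ end: ataataatATTAAActtttttctgtgcagt
Cflar 3′ end: tcattacATTAAAgattatttcttttaaaa
Fadd 3′ end: attacattgctaaATTAAAttctattgctt
Casp2 3′ end: tgccaAATAAAtgttgatacttattactga
Casp6 3′ end: attttggaaacAATAAAcctttcagaatta
Xiap 3′ end: aagacttattcAATAAAgcactattcttta
Casp8, Cflar and Fadd end with ATTAAA and no AATAAA within the last 40 bases, and the other 5 with AATAAA. Over 12574 coding genes whose mean count reached 10 in either strain, 62.6% have AATAAA there and 18.1% ATTAAA, with or without AATAAA. A cytoplasmic polyadenylation element, spelled TTTTAT or TTTTAAT, is in the last 150 bases of Casp9 and Xiap only among the 8, against 24.9% of those genes. Casp8, Cflar, Fadd, Casp2, Casp6 and Birc2 do not have those letters in that window. Tail length was not measured, and its part in the levels was not tested. The 30 bases around the Xiap element, which starts 124 bases from the end, show it in capitals.
Xiap element: ttgtgaatataaTTTTATgactcgtttatg

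The rest of the pathway was described from 68 further genes in 8 lists. Between MII eggs and G1 zygotes 0 of 47 tested genes passed the DESeq2 threshold in the authors' deposited table. From G1 to G2 zygotes 4 of 51 rose and 6 fell in B6CASTF1, where 9.63% of all tested genes rose and 9.63% fell, and 3 of 47 rose and 3 fell in C57BL/6J, where 5.01% rose and 2.87% fell. At the 2-cell step 28 of 56 rose and 9 fell in B6CASTF1, beside 33.1% and 26.8% of all tested genes, with a median log2 fold change of 1.96 against 0.55 over all. In C57BL/6J 16 of 47 rose and 11 fell at that step, beside 25.0% and 25.3% of all tested genes, with a median of 0.76 against 0.17. The counts of single lists given next rest on few genes each and are read against these shares.

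Of 6 ligands, 3 could be tested in B6CASTF1 and 2 in C57BL/6J, and 2 rose in each at the 2-cell step. Fasl, the ligand of Fas, is listed at 0 in both strains, and Tnf and its receptor Tnfrsf1a are listed at 0 in C57BL/6J; Fas had a mean count of 2.92 in B6CASTF1 and 22.6 in C57BL/6J with no adjusted p (these 4 were named after their values were seen). The TRAIL pair was present. Tnfsf10, which encodes TRAIL, rose at the 2-cell step, with 617 in 2-cell embryos against 229.9 in G2 zygotes of B6CASTF1 and 5029 against 1978 in C57BL/6J; the authors' deposited table gives 1.43 (SE 0.40, DESeq2 adjusted p = 8.7e-04) and 1.35 (SE 0.52, DESeq2 adjusted p = 0.021). Its receptor Tnfrsf10b rose with it, for which the authors' deposited table gives 4.74 (SE 0.98, DESeq2 adjusted p = 4.0e-06) in B6CASTF1 and 5.13 (SE 1.01, DESeq2 adjusted p = 2.1e-06) in C57BL/6J. Tnfrsf21, the death receptor DR6, fell, to 1.96 in 2-cell embryos against 271 in G2 zygotes of B6CASTF1 and to 26.7 against 789 in C57BL/6J. Of the receptors tested, 4 of 6 rose and 1 fell in B6CASTF1, and 2 of 4 rose and 2 fell in C57BL/6J.

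In the receptor complexes, Ripk1, the kinase that links TNF receptors to survival or death, fell at the 2-cell step. Its implied level was 144 in 2-cell embryos against 648 in G2 zygotes of B6CASTF1, and 1.76 against 351 in C57BL/6J; the authors' deposited table gives -2.17 (SE 0.38, DESeq2 adjusted p = 3.6e-08) and -7.63 (SE 0.82, DESeq2 adjusted p = 6.4e-19). Cradd, the adaptor that joins caspase-2 to the PIDDosome, also fell in both strains, to 11.8 against 111 in B6CASTF1 and to 0.246 against 170.2 in C57BL/6J. Ubxn1 rose to 7893 in 2-cell embryos against 150.1 in G2 zygotes of B6CASTF1 and to 5051 against 84.6 in C57BL/6J. The list of 16 adaptors, kinases and ubiquitin enzymes had 5 rising and 3 falling of 16 tested in B6CASTF1, and 3 and 3 of 13 in C57BL/6J, near the shares over all genes.

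Of the necroptosis genes 1 of 3 tested rose in B6CASTF1 and 1 of 2 in C57BL/6J. Ripk3, the kinase downstream of Ripk1, rose to an implied level of 579 in 2-cell embryos against 0.322 in G2 zygotes of B6CASTF1 and to 825 against 1.06 in C57BL/6J (the authors' deposited table has DESeq2 adjusted p = 4.5e-12 and 6.6e-05). Mlkl, the pore-forming protein of the route, had 50.6 against 54.5 in B6CASTF1 and 73.7 against 110.1 in C57BL/6J, and did not pass.

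Of the IAP genes and their antagonists, 4 of 10 rose and 3 fell at the 2-cell step in B6CASTF1 and 2 of 10 rose and 4 fell in C57BL/6J, beside 33.1% and 26.8% of all genes in B6CASTF1 and 25.0% and 25.3% in C57BL/6J. Birc3, which encodes cIAP2, fell to 1412 in 2-cell embryos against 15775 in G2 zygotes of B6CASTF1, and to 840.3 against 6370 in C57BL/6J; the authors' deposited table gives -3.48 (SE 0.16, DESeq2 adjusted p = 2.3e-104) and -2.92 (SE 0.45, DESeq2 adjusted p = 5.3e-10). Birc5, or survivin, which also serves chromosome segregation, was higher in G2 than in G1 zygotes and lower in 2-cell embryos, past the threshold in both strains. Its 2-cell log2 fold change in the authors' deposited table is -1.08 (SE 0.18) in B6CASTF1 and -1.16 (SE 0.19) in C57BL/6J. Diablo, an IAP antagonist, rose in B6CASTF1, where the authors' deposited table gives 2.999 (SE 0.26, DESeq2 adjusted p = 4.3e-29), and its 1.15 (SE 0.56, DESeq2 adjusted p = 0.072) in C57BL/6J did not pass. Naip1 fell to 11.8 against 448 in B6CASTF1 and to 0.479 against 147 in C57BL/6J, with the limit that the Naip genes are near-identical copies.

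Of the 5 listed apoptosome and mitochondrial genes, 5 rose at the 2-cell step in B6CASTF1 and 2 in C57BL/6J, where Apaf1, Aifm1 and Endog did not pass. In C57BL/6J Aifm1 and Endog were above 0, and Apaf1 was below it. For Apaf1 the authors' deposited table gives 1.43 (SE 0.39) in B6CASTF1 and -1.62 (SE 0.82, DESeq2 adjusted p = 0.088) in C57BL/6J. Cycs, cytochrome c, reached 10819.9 in 2-cell embryos against 3179 in G2 zygotes of B6CASTF1 and 36330.5 against 13329.9 in C57BL/6J. Bid, the BH3 protein that caspase-8 cleaves to reach the mitochondria, rose to 1708 against 10.8 in B6CASTF1 and to 609 against 2.40 in C57BL/6J. Of the caspase substrates and nuclease genes, 6 of 10 rose and 2 fell in B6CASTF1, and 3 of 9 rose and 2 fell in C57BL/6J. Parp1, a DNA repair enzyme cut by executioner caspases, rose to 1242 against 322 in B6CASTF1 and to 496 against 53.0 in C57BL/6J, and Dfna5, which encodes the pore-forming gasdermin E, fell to 0.18 against 114 in B6CASTF1 and to 0.477 against 178 in C57BL/6J.

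**Figure D4:**
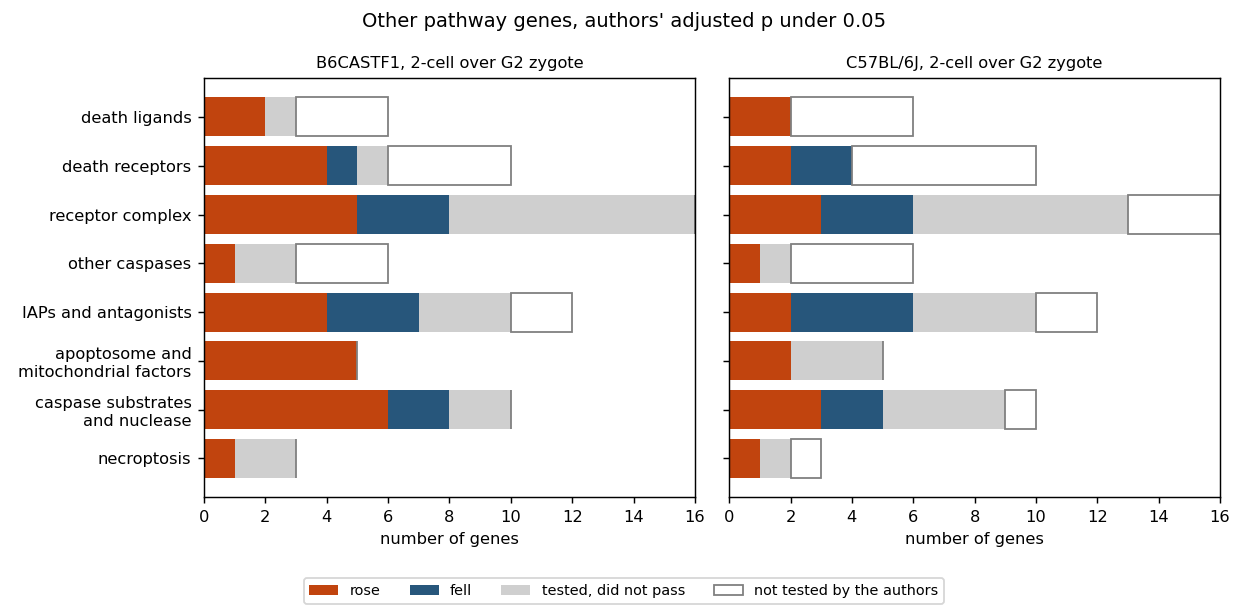
Number of genes in 8 pathway lists that rose, fell, were tested without passing, or were not tested at the 2-cell over G2 step, in B6CASTF1 (left) and C57BL/6J (right), by the authors' adjusted p under 0.05. In total 28 rose and 9 fell of 56 in B6CASTF1 and 16 rose and 11 fell of 47 in C57BL/6J.

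The genes most like Casp8 were found by Euclidean distance over the 5 log2 fold changes, among 8094 genes whose mean count reached 100 in each strain. They are Il10rb, a receptor chain for interleukin-10 and related cytokines, at 0.989; Serpinb12, a serpin protease inhibitor, at 1.06; the predicted gene Gm38416 at 1.34; Gfra1, the GDNF receptor chain, at 1.35; and 1700011A15Rik at 1.35. The median distance of all candidates was 11.8. For their 2-cell step the authors' deposited table gives these 5 genes -5.95 to -7.86 in B6CASTF1 and -8.58 to -9.25 in C57BL/6J. The distance includes both 2-cell steps, so values near those of Casp8 follow from the choice and are a description only. Among the 8 genes Casp2 was nearest at 6.75, the 871st of the 8094, and Cflar stood at 9.88, the 2538th; Fadd and Casp9 fell under the mean count in at least 1 strain.

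**Figure D5:**
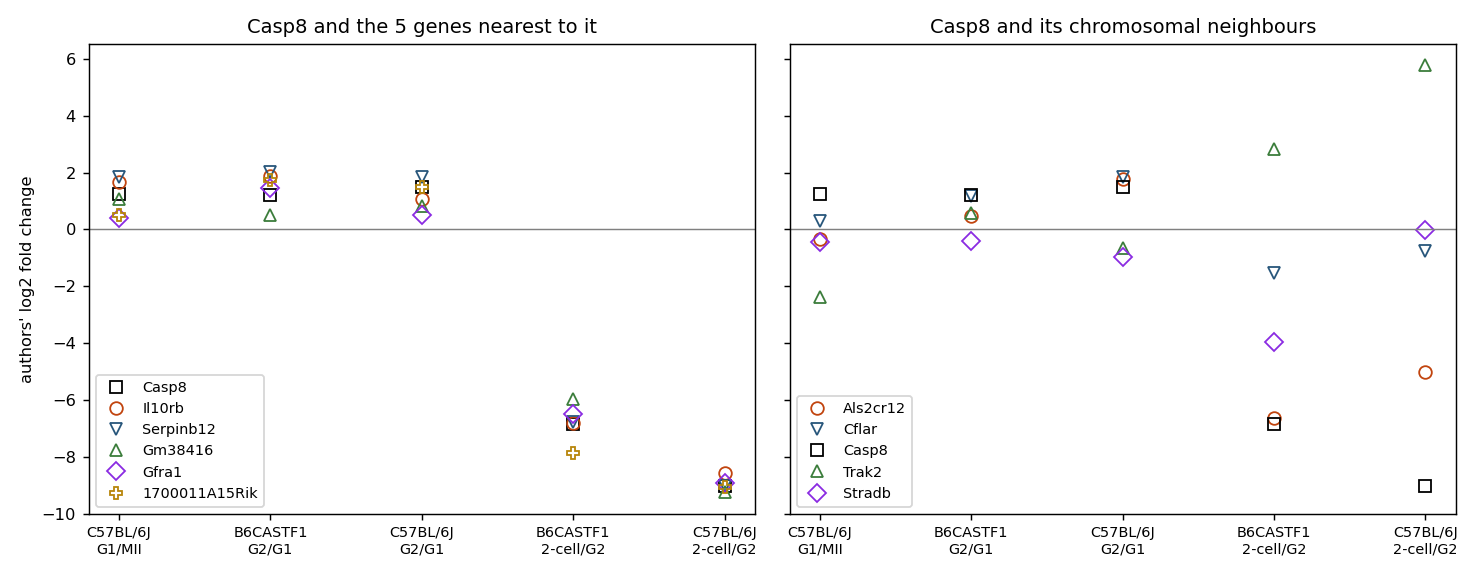
The authors' log2 fold changes in 5 comparisons for Casp8 with the 5 genes nearest to it (left) and for Casp8 with its neighbours on the chromosome (right), each symbol a gene. The nearest genes, chosen by these same 5 values, lie within -5.95 to -7.86 and -8.58 to -9.25 at the 2-cell steps. The neighbours, chosen by position, spread over both sides of 0.

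The genes beside Casp8 on chromosome 1 moved in different directions. Als2cr12, on the far side of Cflar and on the minus strand, fell at the 2-cell step, to 2.44 against 243 in B6CASTF1 and to 12.5 against 403 in C57BL/6J; the authors' deposited table gives -6.64 (SE 0.91, DESeq2 adjusted p = 1.6e-12) and -5.02 (SE 1.16, DESeq2 adjusted p = 7.0e-05). Trak2, downstream of Casp8 on the minus strand, rose to 724 against 103 in B6CASTF1 and to 189.9 against 3.47 in C57BL/6J. Stradb, next beyond it on the plus strand, fell in B6CASTF1, where the authors' deposited table gives -3.97 (SE 0.21, DESeq2 adjusted p = 1.7e-75), and in C57BL/6J its -0.01 (SE 0.70, DESeq2 adjusted p = 0.99) did not pass.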

How the data were processed

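Poly(A) RNA of 20 samples in 7 groups was sequenced after Smart-seq2 with oligo-dT priming, per the labels' protocols. The submitters' processing notes name the build mm10 (GRCm38) and the tools kallisto, TopHat, bcl2fastq, Picard and DESeq2 as those the authors used, and the names of the authors' tables give DESeq2 1.18.1. Each deposited table holds, per the file headers, the mean of normalized counts, log2 fold changes before and after shrinkage, the SE, the Wald statistic as a score of fold change over SE, and the p-value before and after adjustment. The labels do not say whether counting used strand.

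The 8 genes and the pathway lists were chosen with earlier results of these data known. Rose and fell mean the authors' adjusted p under 0.05. Implied stage levels were solved from the mean count and the fold changes, weighted by samples per stage; a level under 1 in either stage gives no fold. The strain difference was B6CASTF1 minus C57BL/6J, divided by the root of the summed squared SE of the authors' DESeq2 fold changes, and its normal p was adjusted by Benjamini-Hochberg over 12517 genes. It was tested on simulated data, where it missed more of the known differences than it called.

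Named were all 8 genes, up to 3 genes with the smallest p per pathway list and comparison (mean count at least 10), the 5 genes nearest to Casp8 and its neighbours; a gene that this rule names is not reported here. Fas, Fasl, Tnf, Tnfrsf1a, Mlkl, Apaf1 and the other strain's value of a gene named in a single strain were added after their values were seen. Promoters came from RefSeq (GRCm38.p6) and transcripts from GENCODE M21, in which all 8 genes were found. The work ran in Python 3.11.15 with scipy 1.17.1, pandas 2.3.3, numpy 2.4.6 and matplotlib 3.10.9. Alternatives were an adjusted p of 0.01, Bonferroni, a mean count of at least 10 or 100, no filter, a minimum absolute log2 fold change of 1, shrunken fold changes, recentring on the median, and an SE raised 1.5 times.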

Additional observations from a re-analysis of the deposited data

Results flagged for a closer look

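None of the 8 genes passed the test of a strain difference in the G2 over G1 step, and 2 of the 45 other pathway genes tested in both strains did, beside 1.92% of all genes tested, by the difference of the G2 over G1 log2 fold changes (B6CASTF1 minus C57BL/6J). Rnf31, which encodes the ubiquitin ligase HOIP of the TNF receptor complex, differed by 7.76 (SE 2.12, adjusted p = 0.021 over all genes tested), with 2.40 in B6CASTF1 and -5.36 in C57BL/6J; its implied level was 47.3 in G2 against 8.98 in G1 zygotes of B6CASTF1 and 1.03 against 42.2 in C57BL/6J. Cycs differed by -0.95 (SE 0.29, adjusted p = 0.048), with -0.02 in B6CASTF1 and 0.93 in C57BL/6J. The number of samples that show each direction is not known, since the tables hold no values per sample. Another 7 of the 45 had an unadjusted p under 0.05 only.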

How the results depend on the processing

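No paired analysis was possible because per-sample values are not in the tables used here, and for the same reason leaving out each replicate was not run. Casp8 crossed the threshold from MII egg to G1 zygote, making 1 of 8 in place of 0, with a mean count of at least 10 (DESeq2 p adjusted again: 0.047), with at least 100 (0.036) and with recentring (0.029). Under Bonferroni the members called were 1 (Cflar) at the G2 over G1 step in B6CASTF1 and 1 (Cflar) in C57BL/6J. At the 2-cell step, which chose the genes, the threshold counts are a description only: Bonferroni marked 2 in B6CASTF1 and 2 in C57BL/6J, and an adjusted p of 0.01 marked 3 in C57BL/6J. With no filter on low counts 4 were marked at that step in C57BL/6J, without Casp6. Recentring also marked 4 there, without Casp6 and Xiap and with Cflar added. Casp6 lost its G2 over G1 call in C57BL/6J at 0.01, under Bonferroni and with no filter (adjusted again: 0.054). Of the other pathway genes, with settings added after seeing the data, Bonferroni left 1 at the G2 over G1 step in B6CASTF1, 1 in C57BL/6J and 14 at the 2-cell step in C57BL/6J, and 0.01 left 4 at the G2 over G1 step in B6CASTF1. Recentring on the median of genes with a mean count of 100 or more took 0.21 off the 2-cell log2 fold changes in B6CASTF1 and 0.23 in C57BL/6J; Casp9 then stood at -0.08 in B6CASTF1. The count of members with a strain difference was 0 under each of its 4 alternatives. With 3 B6CASTF1 2-cell samples in the weights, chosen after seeing the data, implied levels changed by a factor of 0.80 to 1.12. Of 249 recomputed gene values only that of Casp9 changed sign. Depth per sample is unknown, so no counting interval can be given.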
